A study of Mus musculus with 6 samples.

Results

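The costimulatory and coinhibitory surface molecules that B cells show to T cells were examined in splenic germinal centre B cells, together with MARCH1, a ubiquitin ligase that acts on one of them. The set was given by name and holds 10 genes of the 55401 listed in each table: Cd80, Cd86, Icosl, Cd274, Pdcd1lg2, Cd83, Marchf1, Pdcd1, Btla and Cd200. No measured value entered their choice by symbol, but the set was drawn up with earlier results of these data known. All 10 were found once in each table, and all 10 were among the 11296 genes with enough counts to be tested.

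Polyadenylated RNA was sequenced from 3 DP libraries and 3 DN libraries, which are subsets of germinal centre B cells sorted by flow cytometry from the spleen. All mice were wild type (WT) C57BL/6, had received sheep red blood cells (SRBC) into the peritoneal cavity, were challenged with them again on day 5 and were killed on day 12, so both subsets share this immunization. The labels give no age and do not say which antigens the names DP and DN stand for. If one of the genes described here encodes such an antigen, its difference would follow from the gate, and the sources used here cannot tell. Per the design text both subsets were taken from each mouse, yet the labels link no library to its animal. The p-values therefore rest on the spread among these 6 libraries, part or all of which may be technical. Gene counts per library were 17509384 to 20538024 in DP and 8904415 to 11897360 in DN, and a floor of 3 counts was worth 0.155 to 0.183 CPM in DP and 0.236 to 0.315 CPM in DN, for counting error only. The 11 germinal centre B cell markers checked, among them Bcl6, Fas and S1pr2, were all detected in every library. All 11 were lower in DP at an adjusted p under 0.05, as were 37.6% of all tested genes.

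A T cell needs a costimulatory signal beside the antigen receptor signal, and the B7 family supplies much of it. CD80 and CD86 bind CD28 and the inhibitory receptor CTLA-4, ICOS ligand binds ICOS on follicular helper T cells, and PD-L1 and PD-L2 bind the inhibitory receptor PD-1. BTLA and CD200 belong to further inhibitory pairs, with HVEM and the CD200 receptor as partners. MARCH1 sits in membranes and ubiquitinates CD86 and MHC class II molecules, which sends them to lysosomes, and CD83 is known to oppose this in dendritic cells. In the germinal centre, surface CD83 and CD86 are used to mark light zone cells, where B cells meet helper T cells.

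Levels below are normalised read counts (CPM, counts scaled to TMM-adjusted library sizes), given per library and as mean ± SD over n = 3 libraries. Changes are log2 fold changes of DP over DN ± standard error from edgeR's quasi-likelihood test, with Benjamini-Hochberg adjustment over all tested genes, and calls were made where the adjusted p was under 0.05. All 10 genes were called, 3 of them higher and 7 lower in DP, where 75.9% of all tested genes were called, 38.3% higher and 37.6% lower. With such a background a call on its own says little about a gene, and the sizes of the changes carry more. Of the 10 genes, 4 were called and at least 2-fold lower in DP, as were 12.8% of tested genes, and 1 was called and at least 2-fold higher, as were 12.3%. The latter gene, Pdcd1, had enough counts for testing only in DP, the group where it was high. In bulk libraries, fewer cells that express a gene and less RNA per cell cannot be told apart. The median change of the 10 genes was -0.88 and that of all tested genes 0.0061.

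**Figure D1:**
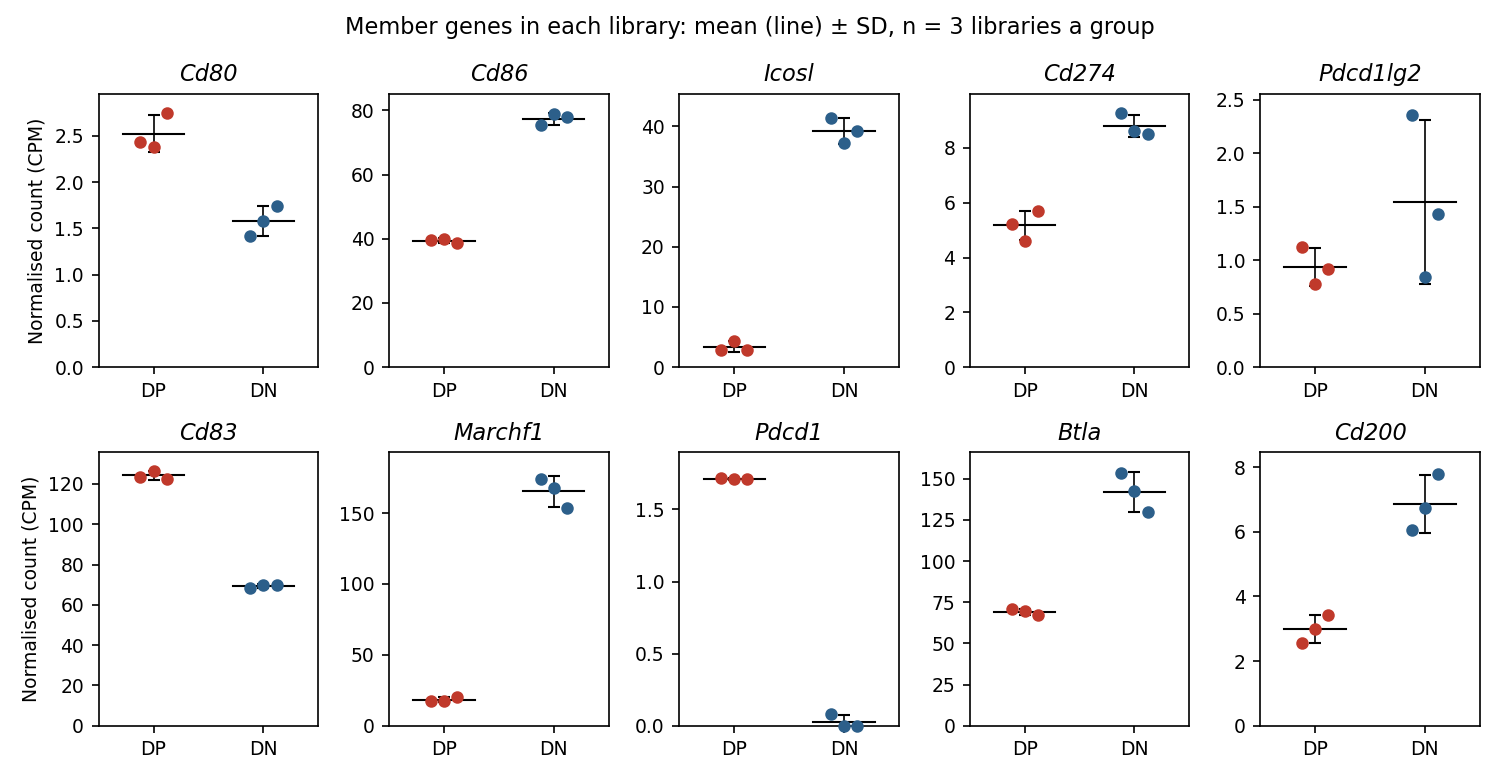
Normalised counts (CPM, linear axes from 0, 1 scale per gene) of the 10 genes in each DP library (red, left) and DN library (blue, right), with the mean as a line and the SD as bars over 3 libraries. The groups are apart in 9 of 10 genes and overlap in Pdcd1lg2.

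Icosl, which encodes ICOS ligand, had the largest fall of the set. It was at 2.79, 4.40 and 2.87 CPM in DP libraries, against 41.3, 37.2 and 39.2 CPM in DN libraries. Every DP library lay far below every DN library, and the highest DP value, in replicate 2, rested on 85 counts. The change was -3.53 ± 0.11 (edgeR adjusted p = 3.43e-36), so that DP held 8.55% of the DN level. Only 61 of 11296 tested genes had a change as low or lower. The gene lies on chromosome 10 from 78069302 to 78083913 on the plus strand of mm10 and is annotated as protein-coding.

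Cd80 and Cd86, which encode the shared ligands of CD28 and CTLA-4, moved in opposite directions. Cd86 was at 39.5, 40.0 and 38.7 CPM in DP libraries, against 75.3, 78.7 and 78.0 CPM in DN libraries. Both groups were tight and well apart, with a change of -0.97 ± 0.05 (edgeR adjusted p = 3.75e-24). Cd80 was at 2.43, 2.38 and 2.75 CPM in DP libraries, against 1.41, 1.57 and 1.74 CPM in DN libraries. All DP libraries were above all DN libraries, but on only 41, 46 and 45 counts in DP and 18, 15 and 17 counts in DN. The change was 0.68 ± 0.25 with a 95% interval of 0.17 to 1.19 (edgeR adjusted p = 0.0136). The call for Cd80 was lost without DN replicate 1 (0.60, adjusted p = 0.064), with DESeq2 (0.68, adjusted p = 0.0578) and with library totals in place of TMM (0.49, adjusted p = 0.0794).

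Cd274 and Pdcd1lg2, which encode PD-L1 and PD-L2, lie next to each other on chromosome 19 with a gap of 22.8 kb between them. Cd274 was at 5.22, 4.61 and 5.68 CPM in DP libraries, against 9.28, 8.61 and 8.52 CPM in DN libraries. The groups did not overlap, and the change was -0.78 ± 0.14 (edgeR adjusted p = 1.61e-06). Pdcd1lg2 was at 1.13, 0.777 and 0.916 CPM in DP libraries, against 2.36, 0.840 and 1.44 CPM in DN libraries. The groups overlapped, and DN replicate 1 held 30 of the 52 counts that the gene had in DN. The change of -0.78 ± 0.33 was called (95% interval -1.45 to -0.12, edgeR adjusted p = 0.029), but without DN replicate 1 it was -0.28 (adjusted p = 0.545). The call was also lost without DP replicate 2 (-0.64, adjusted p = 0.112) and without DP replicate 3 (-0.76, adjusted p = 0.0683). An antisense gene, A930007I19Rik, overlaps Pdcd1lg2 and had 21 counts in all 6 libraries together. Another, AC119228.1, overlaps Cd274 and had 10. Since no source used here states whether counting used strand, reads of each gene and its antisense gene may be mixed.

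**Figure D2:**
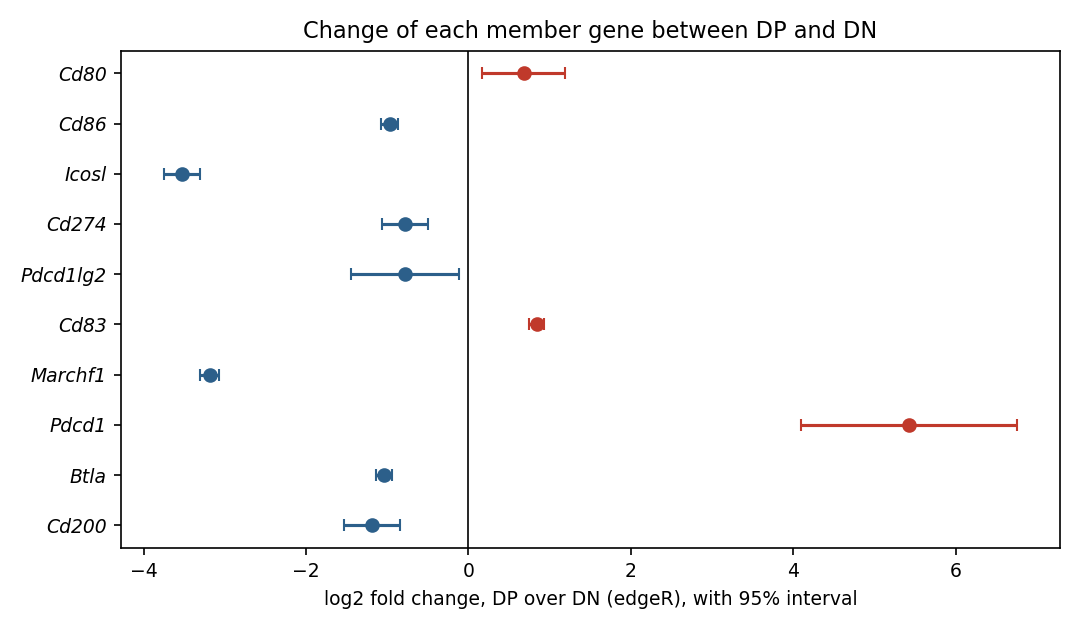
log2 fold change of DP over DN for each gene, with its 95% interval from the edgeR fit (red higher, blue lower in DP). Icosl at -3.53 and Marchf1 at -3.19 lie far left of the other falls, which sit between -1.18 and -0.78, and the wide interval of Pdcd1 rests on 1 count in DN.

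Set per kb of annotated exon, so that genes can be compared, the 5 B7 family ligands summed to 14.0 to 14.2 CPM per kb in DP libraries and to 32.8 to 33.7 CPM per kb in DN libraries. These lengths count every annotated exon, used or not. A long exon that neither group uses would lower a gene's value in both alike, but exon use in each group was not tested. Cd86 held most of the sum, 75.7% to 77.0% in DP and 61.1% to 65.6% in DN. Icosl held 4.29% to 6.71% in DP and 24.5% to 26.6% in DN, which made it the next most abundant of the 5 in DN. Cd80 held 4.53% to 5.32% in DP and 1.14% to 1.41% in DN. The share of Cd274 was 8.96% to 11.2% in DP and 7.05% to 7.61% in DN, and that of Pdcd1lg2 overlapped between groups.

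**Figure D3:**
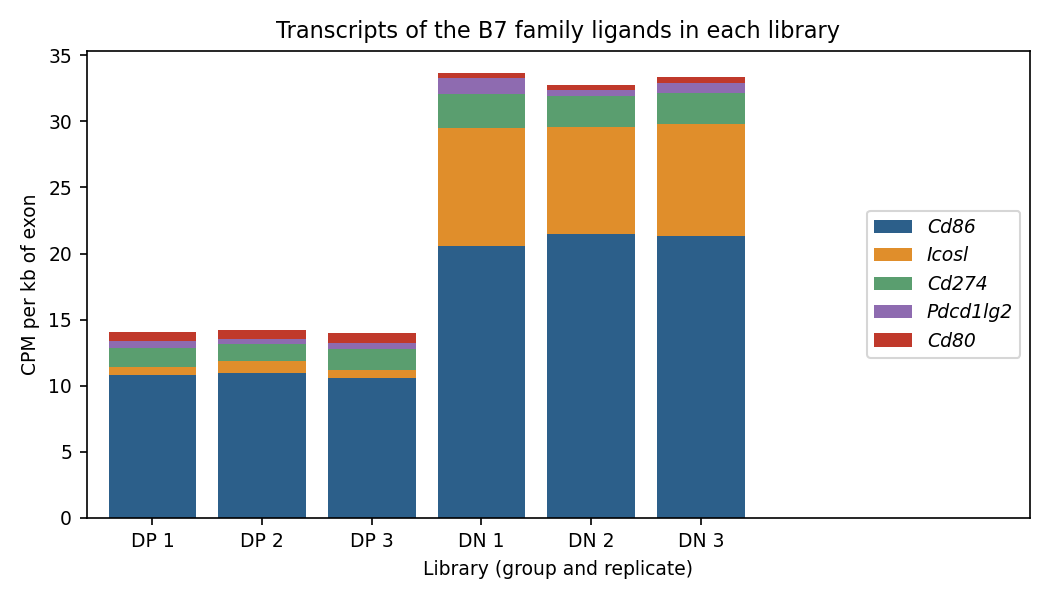
Stacked levels (CPM per kb of exon) of Cd86, Icosl, Cd274, Pdcd1lg2 and Cd80 in each library, DP libraries left and DN libraries right. The DP columns reach 14.0 to 14.2 and the DN columns 32.8 to 33.7, and the Icosl band is thin in DP.

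Marchf1 showed the other large fall. It was at 17.3, 17.1 and 20.3 CPM in DP libraries, against 174, 168 and 154 CPM in DN libraries. The groups were far apart, with a change of -3.19 ± 0.06 (edgeR adjusted p = 2.35e-45), and DP held 11.0% of the DN level. Marchf1 and Icosl were among the 118 tested genes (1.04%) that were called and at least 8-fold lower in DP. The gene spans 854 kb on chromosome 8, from 65617900 to 66471637, and 6 annotated genes lie within it, of which only 1 had any counts, 11 in all 6 libraries together.

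Cd83, the surface molecule that opposes MARCH1 in dendritic cells, was higher in DP. It was at 124, 126 and 123 CPM in DP libraries, against 68.2, 69.8 and 70.0 CPM in DN libraries. The libraries of each group lay close together and the groups apart, with a change of 0.84 ± 0.05 (edgeR adjusted p = 2.10e-24). Ratios within a library do not depend on how libraries are scaled. The Cd83 to Marchf1 ratio, per kb of exon, was 16.8 to 20.6 in DP libraries and 1.09 to 1.27 in DN libraries. The Cd86 to Marchf1 ratio was 3.72 to 4.57 in DP libraries and 0.843 to 0.992 in DN libraries, so that Cd86 transcripts, though fewer in DP, were more numerous there relative to those of the ligase. The Cd80 to Cd86 ratio was 0.0588 to 0.0703 in DP libraries and 0.0186 to 0.0221 in DN libraries, and the Icosl to Cd86 ratio was 0.0560 to 0.0871 in DP and 0.374 to 0.435 in DN. The Cd274 to Cd86 ratio overlapped between groups, at 0.116 to 0.149 in DP and 0.110 to 0.125 in DN.

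**Figure D4:**
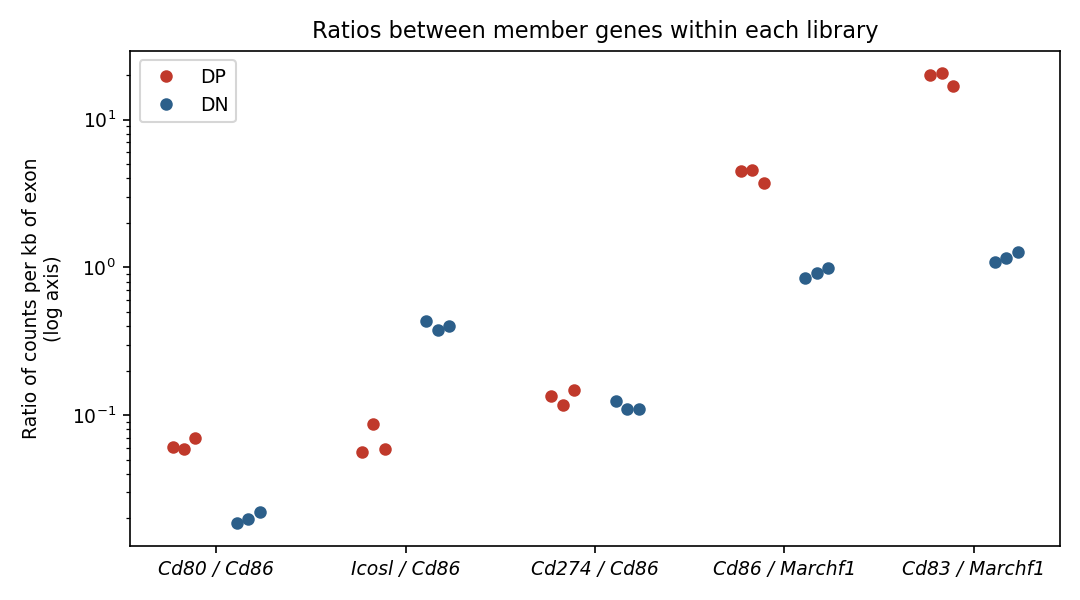
Ratios of counts per kb of exon between pairs of genes within each library (log axis), DP red and left, DN blue and right. The Cd83 to Marchf1 ratio lies at 16.8 to 20.6 in DP and 1.09 to 1.27 in DN, the Icosl to Cd86 ratio is lower in DP, and the Cd274 to Cd86 ratios overlap.

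The inhibitory receptors did not move together. Pdcd1, which encodes PD-1, had 29, 33 and 28 counts in DP libraries, against 1, 0 and 0 counts in DN libraries. In CPM this was 1.71 to 1.72 in DP and 0 to 0.0786 in DN, where each library was below its floor of 3 counts. The ratio of DP to DN counts, set per library size, was 54.8, and counting error alone gave it a 95% exact interval of 9.59 to 2189. The fit called it (5.42 ± 0.66, edgeR adjusted p = 1.08e-10), though Pdcd1 had enough counts for testing only in DP, where it was high. With 1 DN count the fitted size depends on the prior count, and it was 7.63 without DN replicate 1, where no DN count remains. Btla, an inhibitory receptor of B and T cells, was at 70.6, 69.6 and 67.1 CPM in DP libraries, against 154, 143 and 130 CPM in DN libraries. Its groups did not overlap, and the change was -1.04 ± 0.05 (edgeR adjusted p = 2.44e-26). Cd200, whose product binds an inhibitory receptor on myeloid and T cells, was at 2.55, 3.00 and 3.42 CPM in DP libraries, against 6.05, 6.72 and 7.80 CPM in DN libraries. Each DP library was below each DN library, with a change of -1.18 ± 0.17 (edgeR adjusted p = 1.19e-08). Btla and Cd200 are neighbours on chromosome 16, 124 kb apart, where Cd80 and Cd86 also lie. Over all 10 genes, libraries of the groups did not overlap in 9, as in 77% of tested genes. All DP libraries were above all DN libraries in 3 of the 10, as in 39% of tested genes, and below them in 6, as in 38%.

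Per kb of exon, the order of the levels differed between the subsets. In DP it ran from Cd83 at 48.3 ± 0.784 CPM per kb through Btla at 20.3 ± 0.536 and Cd86 at 10.8 ± 0.187 to Marchf1 at 2.55 ± 0.251 and Cd274 at 1.43 ± 0.149. These 5 did not overlap with their neighbours in the order. Cd200, Pdcd1, Icosl and Cd80 followed at 0.901 to 0.681 CPM per kb, each overlapping with the next, and Pdcd1lg2 was lowest at 0.480 ± 0.0900. In DN the order began with Btla at 41.8 ± 3.56 CPM per kb and Cd83 at 27.0 ± 0.378. Marchf1 at 23.1 ± 1.49 and Cd86 at 21.1 ± 0.494 overlapped, and Icosl came next at 8.49 ± 0.453. Cd274 at 2.43 ± 0.114 and Cd200 at 2.06 ± 0.266 nearly met, with a lowest Cd274 value of 2.352 and a highest Cd200 value of 2.349. Pdcd1lg2 at 0.788 ± 0.390 overlapped with Cd80 at 0.426 ± 0.0445, and Pdcd1 was last.

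Several of these genes are also expressed by T cells, dendritic cells, macrophages or endothelium, and markers of those cells were read beside them. Of all tested genes, 38.3% were called higher in DP and 37.6% lower. Of 16 T cell markers, which bear on Pdcd1, Btla and Cd200, 4 were tested, with Thy1 higher in DP, Cd2 and Cd4 lower and Lat not called. Cd4 and Lat had enough counts for testing only in DN, so the entry of Cd4 rested on the group where it was high. The 16 summed to 38.6 to 40.8 CPM in DP and 153 to 179 CPM in DN, most of it Cd2 (31.8 CPM in DP and 162 CPM in DN on average). Without Cd2 and Thy1, the other 14 summed to 1.83 to 2.85 CPM in DP and 4.17 to 5.85 CPM in DN. The 6 genes of the T cell receptor complex had 7 to 17 counts per DP library and 14 to 22 per DN library, or 0.363 to 1.01 CPM in DP and 1.44 to 2.31 CPM in DN. None of these 6 had enough counts to be tested, and the part of T cells in the values of Pdcd1, Btla and Cd200 was not tested. Of 10 dendritic cell markers, 4 were tested and all 4 were higher in DP, among them Flt3 and Fscn1. The other tested markers, Zbtb46 and Itgax, had enough counts for testing only in DP. Their entry to the test thus rested on the group where they were high. The dendritic cell list summed to 64.6 to 66.5 CPM in DP and 27.3 to 27.8 CPM in DN. Zbtb46 had 89 counts in DP and 0 in DN, at least 18.1-fold higher in DP against a floor of 3 counts over the group. Xcr1, Cd209a and Clec10a were at 0 in all 6 libraries. The 7 markers other than Flt3, Fscn1 and Zbtb46 had 18 to 22 counts per DP library and 9 to 12 per DN library. Scaled to library size, these 7 summed to 0.984 to 1.31 CPM in DP and 0.786 to 1.26 CPM in DN, which overlap. The part of dendritic cells in the rises of Cd80 and Cd83 was not tested.

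Of 13 macrophage and monocyte markers, 8 were tested, with 7 lower and 1 higher in DP (0 higher with library totals). Their sum was 13.5 to 16.1 CPM in DP and 28.4 to 31.3 CPM in DN, with Cd14 at 0 throughout. They moved in the same direction as Cd86, Icosl, Cd274 and Marchf1, and their part in those falls was not tested. Endothelial and stromal markers, which bear on Cd200, summed to 12.4 to 13.2 CPM in DP and 55.4 to 63.2 CPM in DN. Pecam1, which also marks some B cells, made up most of that sum, and the 8 others summed to 2.51 to 3.47 CPM in DP and 2.41 to 4.52 CPM in DN, with Tie1 at 0. Of the erythroid markers, 6 were tested and all 6 were lower in DP, with sums of 15.8 to 18.3 CPM in DP and 62.0 to 72.5 CPM in DN. Plasma cell markers included 4 higher and 1 lower of 6 tested (sums of 370 to 381 CPM in DP and 403 to 414 CPM in DN), and naive B cell markers 1 higher and 4 lower of 6 (99.4 to 106 CPM in DP and 101 to 110 CPM in DN).

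Stretches upstream of RefSeq start sites are shown for the genes with the largest falls, Icosl and Marchf1, and for Cd80 and Pdcd1, which were higher in DP. They come from RefSeq (GRCm38.p6, which mm10 is built on), run 5′ to 3′ on the gene's strand and stop before the start site or at an annotated exon. Capitals mark whole matches to GGANNTTCC (a form of the kappaB site of NF-kB), TTCNNNGAA (the GAS site of STAT factors), GAAANNGAA (a form of the interferon response element), CACGTG (the E-box) or TGANTCA (the AP-1 site), searched on both strands.
Icosl: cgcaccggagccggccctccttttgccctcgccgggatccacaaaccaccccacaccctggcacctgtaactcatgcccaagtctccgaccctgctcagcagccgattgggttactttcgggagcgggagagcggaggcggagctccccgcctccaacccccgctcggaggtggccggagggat
Marchf1: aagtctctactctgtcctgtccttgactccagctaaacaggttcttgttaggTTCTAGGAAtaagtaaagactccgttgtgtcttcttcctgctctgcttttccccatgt
Cd80: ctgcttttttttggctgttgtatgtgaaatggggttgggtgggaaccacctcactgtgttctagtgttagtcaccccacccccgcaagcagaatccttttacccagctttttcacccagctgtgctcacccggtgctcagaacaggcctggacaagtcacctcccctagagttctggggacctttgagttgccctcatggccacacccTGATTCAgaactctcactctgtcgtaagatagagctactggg
Pdcd1: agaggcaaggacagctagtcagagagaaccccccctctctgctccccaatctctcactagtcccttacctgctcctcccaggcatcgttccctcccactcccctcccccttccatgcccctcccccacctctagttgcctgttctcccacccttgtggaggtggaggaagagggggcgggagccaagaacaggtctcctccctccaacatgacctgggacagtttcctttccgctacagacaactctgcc

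The printed stretches lie at chr10:78069118-78069301 (plus strand) for Icosl, chr8:65617790-65617899 (plus) for Marchf1, chr16:38458683-38458932 (plus) for Cd80 and chr1:94052554-94052803 (minus) for Pdcd1. RefSeq gives Marchf1 more than 1 start site, and the most upstream is shown. The Cd80 stretch lies inside the longer gene that GENCODE annotates. In the full windows of 300 bases, which run 50 bases past the start site, Cd80 held an AP-1 match that begins 42 bases before its start site. This Marchf1 window held a GAS match 198 bases before the start site. Outside the stretches shown, Cd274 held an interferon response element match 76 bases before its start site and Btla one 210 bases before. Past their start sites, Btla held an E-box match at base 5 and the most downstream Marchf1 window a GAS match at base 4. The windows of Icosl, Pdcd1, Pdcd1lg2 and Cd200 held none of the 5 motifs, and no matches overlapped. Windows were at hand for 8 of the 10 genes, with none for Cd83 and Cd86. Among 32851 promoter windows of that length, 4.26% hold the kappaB letters, 8.30% GAS, 8.56% the interferon response element, 7.15% the E-box and 7.81% AP-1.

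Other genes of these pathways were read from lists. The counts called for each list stand beside 38.3% of all tested genes called higher in DP and 37.6% called lower. Of 27 further B7 and CD28 family genes and partner receptors in the tables, 11 were tested, with 6 higher and 3 lower in DP and a median of 1.19. Some of the 6, Cd70 and Tnfsf9 among them, entered the test only through DP, where they were high. Vsir, among the 3, entered only through DN. Both counts and the median thus depend in part on the filter. The list reaches beyond the B7 and CD28 families, and its median is the value of Cd40. Vsir, a B7 family gene, was lower in DP (-2.06 ± 0.42, edgeR adjusted p = 1.70e-05) but had enough counts for testing only in DN. Timd2, which encodes the TIM-2 receptor of B cells, was at 72.1 CPM in DP and 8.50 CPM in DN (3.09 ± 0.08, edgeR adjusted p = 2.55e-40). Cd40, the receptor through which T cells help B cells, was at 76.1 CPM in DP and 33.3 CPM in DN (1.19 ± 0.06). Btnl2, a butyrophilin-like relative of the B7 family, fell by 0.95 ± 0.08 and Lgals9, which encodes galectin 9, fell by 0.72 ± 0.09. Of the TNF family ligands that costimulate T cells, named after their values were seen, Cd70 had 19, 31 and 21 counts in DP libraries, against 0 in every DN library. That was at least 14.4-fold higher in DP against a floor of 3 counts over the group. Tnfsf9, the ligand of 4-1BB, had 31, 40 and 39 counts in DP libraries, against 7, 4 and 4 in DN libraries (2.14 ± 0.36, edgeR adjusted p = 3.76e-07). Cd70 and Tnfsf9 had enough counts for testing only in DP. Tnfrsf14, which encodes the BTLA ligand HVEM, was not called (-0.13 ± 0.16, adjusted p = 0.484).

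The other MARCH ligases were read beside MARCH1. Of 7 tested genes for other MARCH ligases, 2 were higher and 3 lower in DP, with a median of -0.16. Marchf7 (-0.65 ± 0.06) and Marchf2 (-1.13 ± 0.13) fell. Marchf5, a ligase of the mitochondrial membrane, rose by 0.24 ± 0.09 (edgeR adjusted p = 0.0122) and Marchf3 by 0.84 ± 0.35 (adjusted p = 0.0271), but with library totals none of the list was called higher and 4 were lower. Marchf3 entered the test only through its DP counts, where it was high. Marchf8, the closest relative of MARCH1, had a change of 0.31 ± 0.21 that was not called (adjusted p = 0.167). The other target of MARCH1, MHC class II, was slightly lower: 10 of 11 tested genes of its molecules, invariant chain and regulator fell and none rose, with a median of -0.38. H2-Ob, a chain of the peptide-loading modulator H2-O, fell by 1.99 ± 0.04, and H2-Eb2 (-0.89 ± 0.04), H2-DMb1 (-0.87 ± 0.06) and the invariant chain Cd74 (-0.38 ± 0.03) fell less. H2-Ab1, which encodes the beta chain of I-A, was not called (-0.033 ± 0.033, adjusted p = 0.37), but with library totals it was called lower (-0.23, adjusted p = 4.02e-09), as were all 11.

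Among 10 tested signalling partners of PD-1, BTLA and the CD200 receptor, 2 were higher and 6 lower in DP, with a median of -0.23. The phosphatase genes that PD-1 and BTLA use moved apart, as Ptpn11 (SHP-2) rose by 0.52 ± 0.04 and Ptpn6 (SHP-1) fell by 0.38 ± 0.03. The Src family kinase genes Lyn (-1.24 ± 0.04) and Fyn (-0.74 ± 0.05) fell, while Lck, of the same family, was called higher (0.19 ± 0.06) but was at -0.007 with library totals. Among 17 genes of PD-L1 trafficking and of interferon and cytokine signalling, 5 were higher and 10 lower, with a median of -0.35. The kinase gene Jak2 (-1.62 ± 0.05), Stat2 (-1.18 ± 0.06), the regulator Irf2 (-0.77 ± 0.04) and the interleukin 10 receptor gene Il10ra (-2.13 ± 0.10) fell. Cmtm6, which keeps PD-L1 at the surface, was not called (0.029 ± 0.060, adjusted p = 0.665), with a sign that flipped between scalings. Among 12 genes of CD40 and NF-kB signalling, 5 were higher and 4 lower, with a median of 0.036 (-0.16 with library totals). Nfkb2 rose by 2.07 ± 0.05 and Nfkb1 by 0.58 ± 0.05, and Rel fell by 0.73 ± 0.05.

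**Figure D5:**
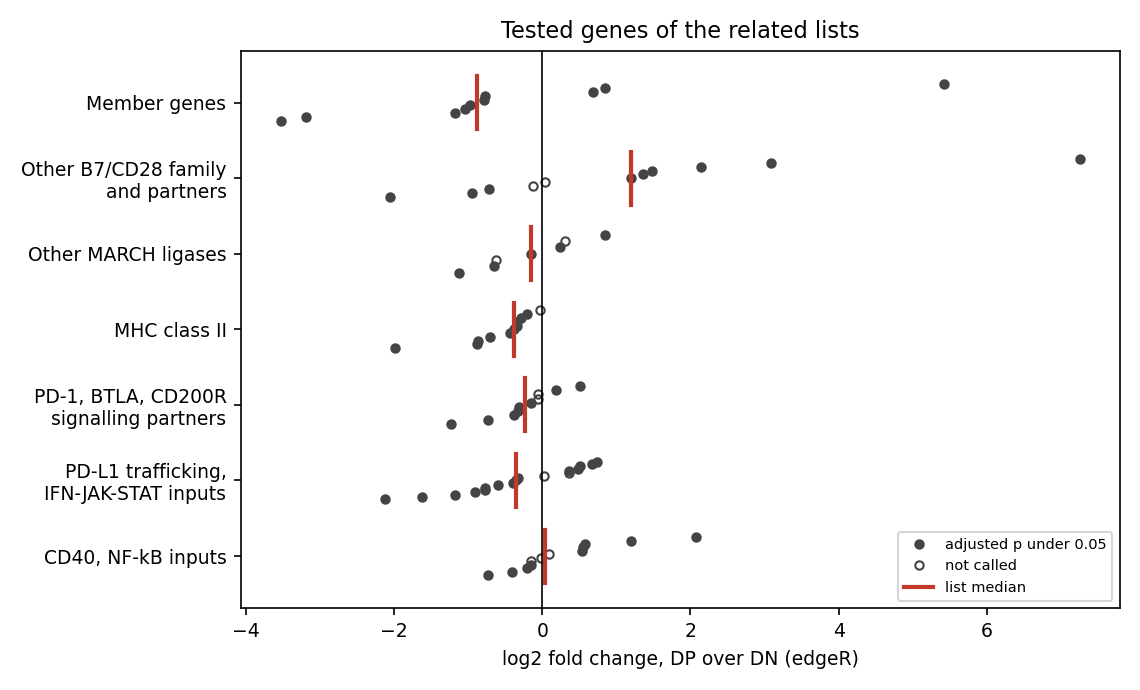
log2 fold change of DP over DN for every tested gene of the set and of each related list, filled where the adjusted p was under 0.05, with the list median as a red line. Medians run from -0.88 for the set to 1.19 for the other B7 and CD28 family genes and partner receptors. The rightmost point of that list is Cd70 (0 counts in DN, so its fitted value is no bound).

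Genes with the most similar pattern were found by the distance between mean-centred log2(CPM + 1) values over the 6 libraries, among tested protein-coding genes outside the set. Among the nearest to Marchf1 were Brwd1 (distance 0.260) and Hmces (0.264), with changes of -3.06 ± 0.04 and -3.11 ± 0.04. Nearest to Cd86 were Mcl1 (0.0503), Itpr2 (0.0607) and Plek (0.0615), and nearest to Cd83 were Ppm1g (0.0360), Mllt1 (0.0487) and Sars (0.0516). With 2 groups, such a distance mostly reads the size of the difference between them.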

How the data were processed

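The authors deposited raw read counts per gene, 1 table for each library. The submitters' processing notes name mm10 as the build and list HTSeq 0.13.5, STAR 2.7.10a and Trim Galore 0.6.6. Their roles and settings, the annotation release and the use of strand in counting are not given in the sources that were used. Per the labels' protocols, the libraries were stranded. The 5 summary rows that name no gene held 9.56% of counts on average in DP and 12.6% in DN and were left out. Positions and exon lengths came from GENCODE M21 for mm10, to which 54349 of 55401 identifiers matched with their version.

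Libraries were grouped by title. DP was compared with DN by edgeR 4.0.16 in R 4.3.3 (quasi-likelihood F test, TMM factors, filterByExpr with a minimum count of 10, robust estimation, no block, Benjamini-Hochberg adjustment). Standard errors came from the fold change and its F statistic. TMM factors were 0.926 to 0.941 in DP and 1.069 to 1.071 in DN. With library totals alone the median gene moved to -0.19, and 38.0% of calls were higher in DP, against 50.5% here. Replicates differed by more than sampling noise (chi-square per degree of freedom 1.96 to 3.24 within DP and 1.98 to 3.26 within DN, against 144 to 182 between groups). Reads are not independent molecules, so counting intervals cover counting error only. On simulated data for this comparison (11142 genes after filtering), 80% of 1.5-fold and 90% of 2-fold changes were recovered, and 6.55% of calls were false. The simulation changed 200 genes, up or down at random, with the same dispersion for all genes. In the data 75.9% of tested genes were called, so these rates need not hold there.

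The members and lists were chosen with earlier results of these data known. Genes named were all 10 members, up to 4 with the smallest p of each list, marker genes at 0, genes overlapping a member, and the 3 nearest in pattern to Marchf1, Cd86 and Cd83. A gene that this rule took is not reported here. Beyond this rule, Bcl6, Fas, S1pr2, Vsir, Cd70, Tnfsf9, Tnfrsf14, Marchf8, H2-Ab1, Lck and Cmtm6 were named after their values were seen. Alternatives were other scalings, filters and thresholds, DESeq2 1.42.0, limma-voom (limma 3.58.1), a replicate block, each library or the immunoglobulin genes left out and, added after the data were seen, DP libraries thinned to DN depth.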

Additional observations from a re-analysis of the deposited data

How the results depend on the processing

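The changes of Cd86, Cd83, Icosl, Cd274, Pdcd1, Btla, Marchf1 and Cd200 kept their direction and their call under each alternative run on single genes that could fit them (other thresholds were run only on counts over all genes), with Icosl between -3.79 and -3.40 and Marchf1 between -3.38 and -3.11. No change of the 10 genes turned its direction. Cd80 was not called with library totals (0.49, adjusted p = 0.0794) or DESeq2 (0.68, adjusted p = 0.0578), and ranged from 0.60 to 0.76 with 1 library left out. Pdcd1lg2 was not called with no filter (-0.71, adjusted p = 0.075), DESeq2 (-0.76, adjusted p = 0.113), limma-voom (-0.69, adjusted p = 0.0594) or thinned DP libraries (-0.74, adjusted p = 0.072), and ranged from -1.05 to -0.28 with 1 library left out. Cd80, Pdcd1lg2 and Pdcd1 fell below the minimum count of 50 and could not be fitted there. The number of other MARCH genes called higher was 0 with library totals and 1 with a minimum count of 50, with DESeq2 and with thinned libraries, and 1 to 2 with 1 library left out, at 1 without DP replicate 2 or 3 or DN replicate 2 or 3. Called higher were 1 signalling partner of the inhibitory receptors with library totals and 3 of the other B7 and CD28 family genes and partner receptors with a minimum count of 50. Tested against a minimum fold of 1.5, 3876 genes were called, 1964 higher and 1912 lower in DP. Same-numbered libraries did not deviate together (correlations of 0.068, 0.001 and -0.011), so the numbers were not taken as pairs, and a replicate block gave 8589 calls and changed no call among the 10 genes. Counts of 8 to 30 per library for Pdcd1lg2 and 15 to 46 for Cd80 limit what can be said of both.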
